A study of Mus musculus with 11 samples.

Results

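Genomic regions of mouse stomach glands were sorted by whether they carried acetylated lysine 27 of histone H3 (H3K27ac), trimethylated lysine 4 of histone H3 (H3K4me3), or both, in mice that express active Notch. H3K27ac marks active promoters and active enhancers. H3K4me3 is laid down around the start sites of genes, above all where the DNA is rich in CpG, and it is found at active promoters and also at CpG-rich promoters of silent developmental genes. At promoters of expressed genes the 2 marks usually lie on the same nucleosomes beside the start site, whereas active enhancers far from genes carry H3K27ac with little H3K4me3.

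The glands came from mice labelled Atp4bCre; Rosa26NICD, called NICD below. Cre is driven there by the promoter of Atp4b, a gene of the acid-secreting parietal cell, and switches on the intracellular, active part of Notch from the Rosa26 locus. Arid1a, the subject of the series, codes for a part of the SWI/SNF chromatin remodelling complex that binds DNA, and it was not floxed in these mice. The NICD group held 2 H3K27ac libraries and 1 H3K4me3 library. The other libraries used were H3K27ac from wild-type glands, from NICD glands with 1 floxed Arid1a allele (Arid1aflox/+) and from NICD glands with 2 (Arid1aflox/flox), 2 libraries each, with 1 H3K4me3 library from wild-type glands and 1 from Arid1a-floxed NICD glands whose labels disagree on the number of alleles. Ages are not given in the sources used here. Fixed epithelial pellets were pooled, so whether libraries of a group came from separate animals is unknown, and the spread behind each p-value is that between these libraries, which may be technical. In pooled glands, 2 marks on the same nucleosome and 2 marks in different cells cannot be told apart.

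H3K27ac regions were the merged peaks of both NICD H3K27ac lists, and a region counted as shared when peaks overlapped by at least 1 bp. Regions called in both H3K27ac lists that overlapped an H3K4me3 peak formed the class with both marks, and those without such a peak the class with H3K27ac alone. H3K4me3 peaks that touched neither H3K27ac list formed the class with H3K4me3 alone. The classes held 17300, 4235 and 15808 regions, 37343 in all. The 11 lists of the series merged into 58978 regions, which can join several regions of the classes, so the first count is not a share of the second. With H3K27ac replicate 2 left out, the class with H3K27ac alone held 16489 regions. The NICD H3K27ac lists held 41405 and 25442 peaks from 13.91 M and 7.96 M tags, and the H3K4me3 list 39420 peaks from 11.75 M tags. Replicate 2 of H3K27ac was the shallower library and had a redundant rate of 0.52. The labels give H3K4me3 as the antibody of that library, while the protocol text, which is the same for every library, names only an antibody to H3K27ac. Within 1 kb of a gene start lay 32.2% of the NICD H3K4me3 peaks, between the 27.3% and 39.4% of H3K27ac replicates 1 and 2, so this position does not separate the marks in NICD. In wild type it was 58.4% for H3K4me3 against 44.3% and 44.9% for H3K27ac. H3K4me3 below means the library so labelled. Of the defining markers of gland cells, Epcam, Cdh1, Krt8 and Krt18, which mark epithelium, all carried both marks, while no H3K27ac peak of either NICD list lay at any of the 5 matched parietal markers, which include Atp4a and Atp4b, subunits of the proton pump. Ptprc, 1 of 4 blood cell markers, and Acta2, a smooth muscle gene and 1 of 5 fibroblast and muscle markers, carried both marks. Both marks lay at 0 of 3 endothelial, 1 of 4 chief cell, 2 of 4 surface pit, 0 of 3 mucous neck and 0 of 5 endocrine markers. The part of other cells in the values below was not tested.

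The promoter sequences of 7 genes are printed to show how their CpG content varied. They were chosen after the values were seen, Notch1 and Sox2 for both marks, Lhx2, Nkx6-1 and Hrh2 for H3K4me3 alone, and Prss27 and Prss36 for H3K27ac alone. Each runs 5′ to 3′ from 250 bases before to 50 bases after the start site, comes from RefSeq on GRCm38.p6, and has its CpG dinucleotides in capitals. The windows are chr2:26503773-26504072 on the minus strand for Notch1, chr3:34649745-34650044 on the plus strand for Sox2, chr2:38339031-38339330 on the plus strand for Lhx2, chr5:101664662-101664961 on the minus strand for Nkx6-1, chr13:54191879-54192178 on the plus strand for Hrh2, chr17:24037993-24038292 on the plus strand for Prss27 and chr7:127946676-127946975 on the minus strand for Prss36.
Notch1: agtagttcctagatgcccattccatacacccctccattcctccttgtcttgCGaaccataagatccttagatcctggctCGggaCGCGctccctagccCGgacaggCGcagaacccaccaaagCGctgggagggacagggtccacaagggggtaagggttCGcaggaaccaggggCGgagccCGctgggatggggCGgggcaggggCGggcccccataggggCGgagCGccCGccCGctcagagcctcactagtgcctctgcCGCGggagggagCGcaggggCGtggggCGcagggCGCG
Sox2: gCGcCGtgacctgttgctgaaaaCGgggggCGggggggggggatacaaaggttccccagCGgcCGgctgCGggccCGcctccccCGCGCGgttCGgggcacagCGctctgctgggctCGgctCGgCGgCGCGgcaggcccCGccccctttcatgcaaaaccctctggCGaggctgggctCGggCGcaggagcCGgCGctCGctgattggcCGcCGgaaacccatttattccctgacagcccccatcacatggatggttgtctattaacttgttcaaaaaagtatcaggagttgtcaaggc
Lhx2: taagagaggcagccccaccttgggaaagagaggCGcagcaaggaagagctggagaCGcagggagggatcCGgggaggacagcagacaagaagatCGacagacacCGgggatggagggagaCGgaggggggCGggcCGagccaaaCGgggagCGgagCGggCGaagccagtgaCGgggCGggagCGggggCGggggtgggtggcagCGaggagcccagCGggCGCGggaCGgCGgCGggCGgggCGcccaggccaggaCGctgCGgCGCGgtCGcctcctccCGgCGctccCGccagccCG
Nkx6-1: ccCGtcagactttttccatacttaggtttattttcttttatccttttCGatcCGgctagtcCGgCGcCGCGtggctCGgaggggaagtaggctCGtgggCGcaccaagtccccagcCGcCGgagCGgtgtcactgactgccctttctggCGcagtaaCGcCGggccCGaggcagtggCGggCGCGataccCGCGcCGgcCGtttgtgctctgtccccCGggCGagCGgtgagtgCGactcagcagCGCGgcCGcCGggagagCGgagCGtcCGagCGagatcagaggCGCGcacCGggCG
Hrh2: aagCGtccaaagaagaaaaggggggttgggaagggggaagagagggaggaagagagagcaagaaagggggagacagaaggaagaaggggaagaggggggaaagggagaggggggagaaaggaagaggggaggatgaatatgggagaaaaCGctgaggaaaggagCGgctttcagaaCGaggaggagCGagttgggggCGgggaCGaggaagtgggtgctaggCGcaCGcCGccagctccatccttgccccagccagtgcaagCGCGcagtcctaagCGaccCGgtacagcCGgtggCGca
Prss27: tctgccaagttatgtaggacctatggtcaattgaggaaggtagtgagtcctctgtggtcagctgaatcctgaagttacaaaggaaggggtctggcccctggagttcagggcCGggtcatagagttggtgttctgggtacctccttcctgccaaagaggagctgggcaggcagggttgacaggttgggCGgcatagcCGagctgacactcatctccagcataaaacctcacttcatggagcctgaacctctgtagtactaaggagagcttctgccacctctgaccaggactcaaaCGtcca
Prss36: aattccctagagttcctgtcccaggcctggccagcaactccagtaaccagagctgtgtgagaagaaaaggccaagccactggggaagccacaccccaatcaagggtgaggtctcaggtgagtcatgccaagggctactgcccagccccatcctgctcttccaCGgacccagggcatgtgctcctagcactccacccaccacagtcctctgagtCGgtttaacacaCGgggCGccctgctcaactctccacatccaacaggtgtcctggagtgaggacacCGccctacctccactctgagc
The windows of Notch1, a receptor of the Notch pathway, and Sox2, a transcription factor of the stomach and of stem cells, held 23 and 27 CpG. Those of Lhx2 and Nkx6-1, homeobox genes of the nervous system and pancreas, held 34 and 40, and that of Hrh2, the histamine receptor through which parietal cells are stimulated, held 16. The windows of Prss27 and Prss36, both serine proteases, held 4 and 5 CpG. Sox2 had H3K27ac pileups of 54 and 27 fragments in replicates 1 and 2 and an H3K4me3 pileup of 96, where pileup is the number of overlapping fragments at a peak's summit as given by the authors. No peak touched its printed window, and H3K27ac replicate 2 touched neither that of Notch1 nor that of Prss27. At Sox2 the strongest summits lay 548 bp downstream, 561 bp upstream and 501 bp downstream of the start. Lhx2, Nkx6-1 and Hrh2 had H3K4me3 pileups of 41, 27 and 24 and no H3K27ac peak within 1 kb of the gene ends. Prss27 had H3K27ac pileups of 45 and 19, Prss36 had 49 and 24, and neither had an H3K4me3 peak there.

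Over all promoters in the RefSeq table, those of genes with both marks held the most CpG and those with H3K27ac alone held few. Promoters were classed by the marks within 1 kb of either end of their gene. Of 17492 promoters, 8429 belonged to genes with both marks and had a median of 22 CpG in the window. Both marks lay within 1 kb of the start itself at 8077 genes, so some promoters were classed by the other end. H3K4me3 alone, with no H3K27ac peak of either list within 1 kb of either end, was found for 1801 promoters. Their median was 16 CpG, so the CpG-rich windows of Lhx2 and Nkx6-1 printed above are not typical of that class. H3K27ac alone, with no H3K4me3 peak within 1 kb of either end, was found for 25 promoters. Their median was 5 CpG, against 2 CpG for the 6171 promoters of genes with no peak. The middle 50% of promoters ran from 15 to 30 CpG for both marks, from 9 to 25 for H3K4me3 alone and from 4 to 5 for H3K27ac alone. The 39 H3K4me3-only promoters that belong to the Hox, developmental transcription factor or Wnt and BMP lists held a median of 26 CpG, against 16 for the other 1762. The ratio of observed to expected CpG followed with medians of 0.80, 0.62 and 0.22 in the 3 classes.

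Short motifs were searched on both strands of the same windows, again classed by the marks at either gene end. CCGGAA, the core letters of sites for ETS factors, stood in 32.1% of promoters with both marks and in 9.16% of those with H3K4me3 alone, against 19.1% of all promoters. GGGCGG, the letters of a GC box, stood in 68.6% and 60.5%, against 46.3% of all. TATAAA, the letters of a TATA box, stood in 6.28% and 8.66%, against 25.02% of promoters with no peak and 13.3% of all. GTGGGAA, the core letters recognised by RBPJ, the DNA-binding partner of active Notch, stood in 5.91% and 6.83%, against 6.07% of all, so its share was near that of all promoters in both classes. CCAAT (39.0% and 36.5%, against 39.2%), TGANTCA (4.28% and 5.39%, against 7.03%) and CACGTG (10.7% and 8.33%, against 7.91%) completed the search, and the motifs can overlap each other. A match is a description of the letters in the window.

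Both marks lay at gene ends, and H3K27ac alone lay far from them. Of the 17300 regions with both marks, 62.1% (95% Wilson interval 61.3 to 62.8) had the end of a protein-coding gene within 1 kb. The share was 8.76% (7.95 to 9.65) for H3K27ac alone and 25.04% (24.4 to 25.7) for H3K4me3 alone, which became 42.7% with the 3 lists cut to equal length. The intervals cover counting error only. Of all 17300 regions with both marks, 50.0% lay within 1 kb of a gene start and 4.11% within 1 kb of the other end. Only genes with a given strand could count here, so both shares can be too low. The median distance to the nearest gene end was 165 bp for both marks, 18096 bp for H3K27ac alone and 9922.5 bp for H3K4me3 alone.

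**Figure D1:**
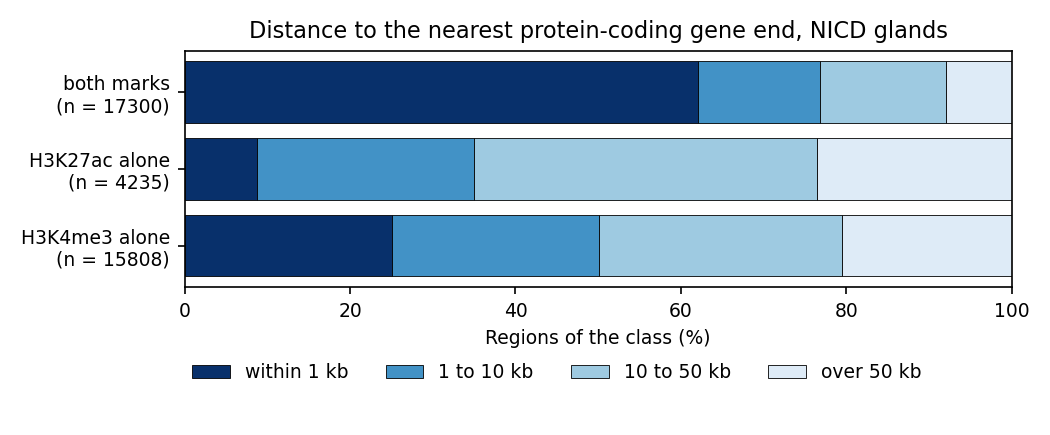
Share of the regions of each class (horizontal axis, %) by distance to the nearest protein-coding gene end in NICD glands. The dark segment, within 1 kb, takes 62.1% of regions with both marks, 8.76% of those with H3K27ac alone and 25.04% of those with H3K4me3 alone.

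Regions with both marks were also the widest, with a median of 648 bp against 460 bp for H3K27ac alone and 334 bp for H3K4me3 alone. Together they covered 12.3 Mb, against 2.13 Mb and 6.75 Mb. Of the 6562 regions with both marks and no gene end within 1 kb, 55.4% lay inside a gene body, and the share was 48.0% for H3K27ac alone and 50.0% for H3K4me3 alone.

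Around the starts of 8077 genes with both marks, summits of both marks sat on either side of the start. The fullest bin of 100 bp lay 200 to 300 bp downstream in each of the 3 lists and held 19.03% and 19.4% of the H3K27ac summits and 19.2% of the H3K4me3 summits. Between 2.56% and 4.09% of summits fell within 100 bp of the start itself. Median summit offsets were 201.5 and 207 bp for H3K27ac and 220 bp for H3K4me3, all downstream. Notch1 followed this form, with H3K27ac summits at 462 and 396 bp and an H3K4me3 summit at 245 bp downstream. At Arid1a the strongest summits lay upstream, at 506 and 516 bp for H3K27ac and 513 bp for H3K4me3.

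**Figure D2:**
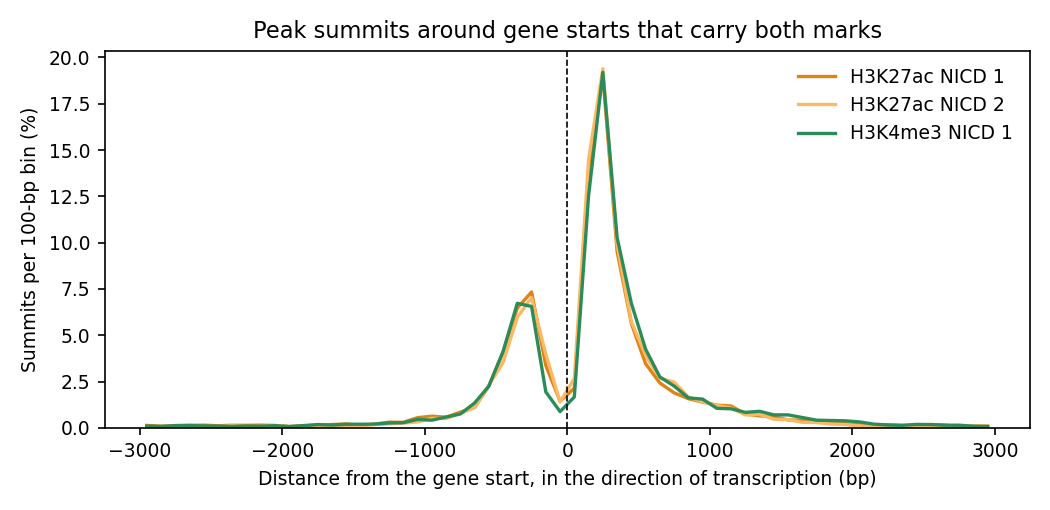
Percent of peak summits in 100-bp bins (vertical axis) by distance from the gene start in bp (horizontal axis, downstream positive) for 8077 genes with both marks, with a line for each NICD list. The 3 lines run together, dip at the start and reach their maximum 200 to 300 bp downstream, between 19.03% and 19.4%.

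Regions with both marks had a higher median strength than regions with either mark alone. Strength was the percentile of a peak within its own list by summit pileup. The median percentile of H3K27ac was 74.9 and 58.2 in replicates 1 and 2 for both marks, and 53.8 and 33.7 for H3K27ac alone. For H3K4me3 it was 78.1 with both marks, 42.8 for peaks that touched only 1 H3K27ac list, and 30.1 for H3K4me3 alone. In pileup these medians were 42 and 21 fragments of H3K27ac against 27 and 15, and 91 fragments of H3K4me3 against 14. Distal regions with both marks were of middling rank, with 65.3 and 46.8 for H3K27ac and 51.4 for H3K4me3. Those at gene ends had 80.5, 67.4 and 84.7. Distal regions with H3K27ac alone had 51.9 and 33.7, and distal H3K4me3 alone had 24.6. The classes rest on calls in the same lists, so these ranks are a description.

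Of all 21535 H3K27ac regions in both lists, 80.3% carried H3K4me3. The share was 96.7% of 11109 regions at gene ends and 62.9% of 10426 distal regions. With the NICD and wild-type lists cut to equal length, the distal share was 41.9% in NICD and 49.1% in wild type, against 47.3% in wild type at full length, so the order of the groups turned. At gene ends it moved little with H3K27ac strength, from 93.2% in the weakest of 10 strength classes to 98.9% in the strongest. Among distal regions it went from 52.8% to 92.8%. H3K4me3 peaks without H3K27ac showed the opposite course: in the weakest of 10 classes 84.0% of those at gene ends touched neither H3K27ac list, and in the strongest 0.201%.

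**Figure D3:**
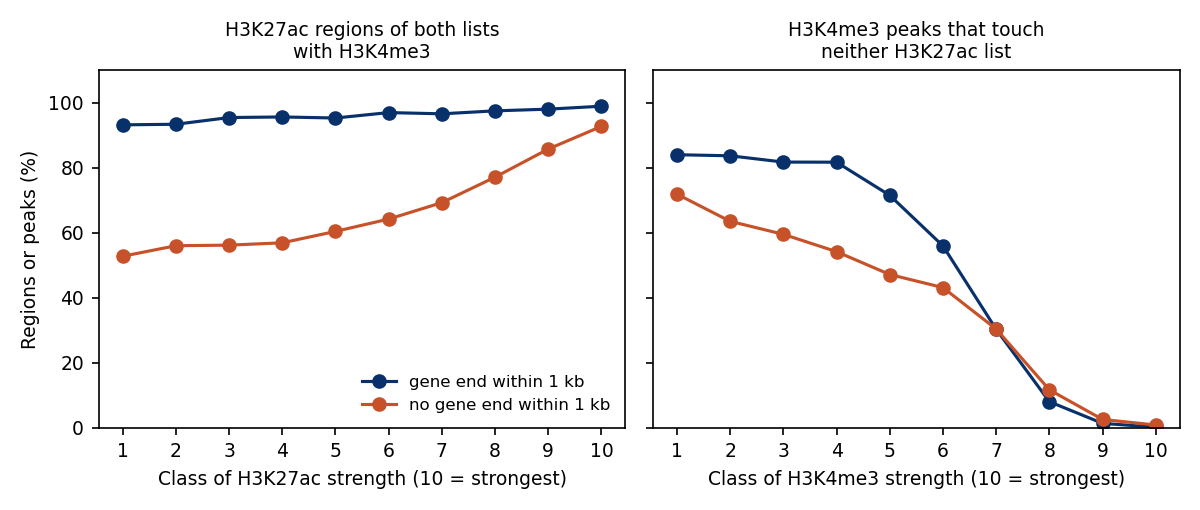
Left, percent of H3K27ac regions with H3K4me3 by class of H3K27ac strength (1 weakest to 10 strongest). Right, percent of H3K4me3 peaks that touch neither H3K27ac list by class of H3K4me3 strength; dark lines are regions with a gene end within 1 kb and light lines those without. The distal line on the left climbs from 52.8% to 92.8%, and both lines on the right end below 1%.

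The borders between classes were not sharp. Of regions with both marks, 36 overlapped H3K4me3 by 50 bp or less. H3K4me3 lay within 1 kb, without touching, of 26.8% of regions with H3K27ac alone, and H3K27ac lay within 1 kb of 21.1% of those with H3K4me3 alone. Such regions lay beside the other mark and were set apart only by the rule of overlap. The 20 strongest regions with both marks by pileup held no gene end within 1 kb, and 16 of them lay between 3000009 and 3035412 on chromosome 9 with fold enrichments of 1.52 to 3.48, so high pileup there came with low enrichment over the local background.

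Among genes, those that every cell uses and those of epithelium carried both marks. A gene was counted as carrying both marks when such a region lay within 1 kb of either end, and as carrying H3K4me3 alone or H3K27ac alone when a region of that class lay there and no peak of the other mark in any NICD list did. Of 21887 protein-coding genes, 10203 carried both marks (46.6%), 2352 H3K4me3 alone (10.7%) and 49 H3K27ac alone (0.224%). Without the condition on the other mark, 3850 genes had an H3K4me3-alone region and 398 an H3K27ac-alone region, which became 1134 without H3K27ac replicate 2. No peak lay at 7751 genes (35.4%), and 1532 had other combinations of peaks, such as H3K27ac in 1 list only.

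**Figure D4:**
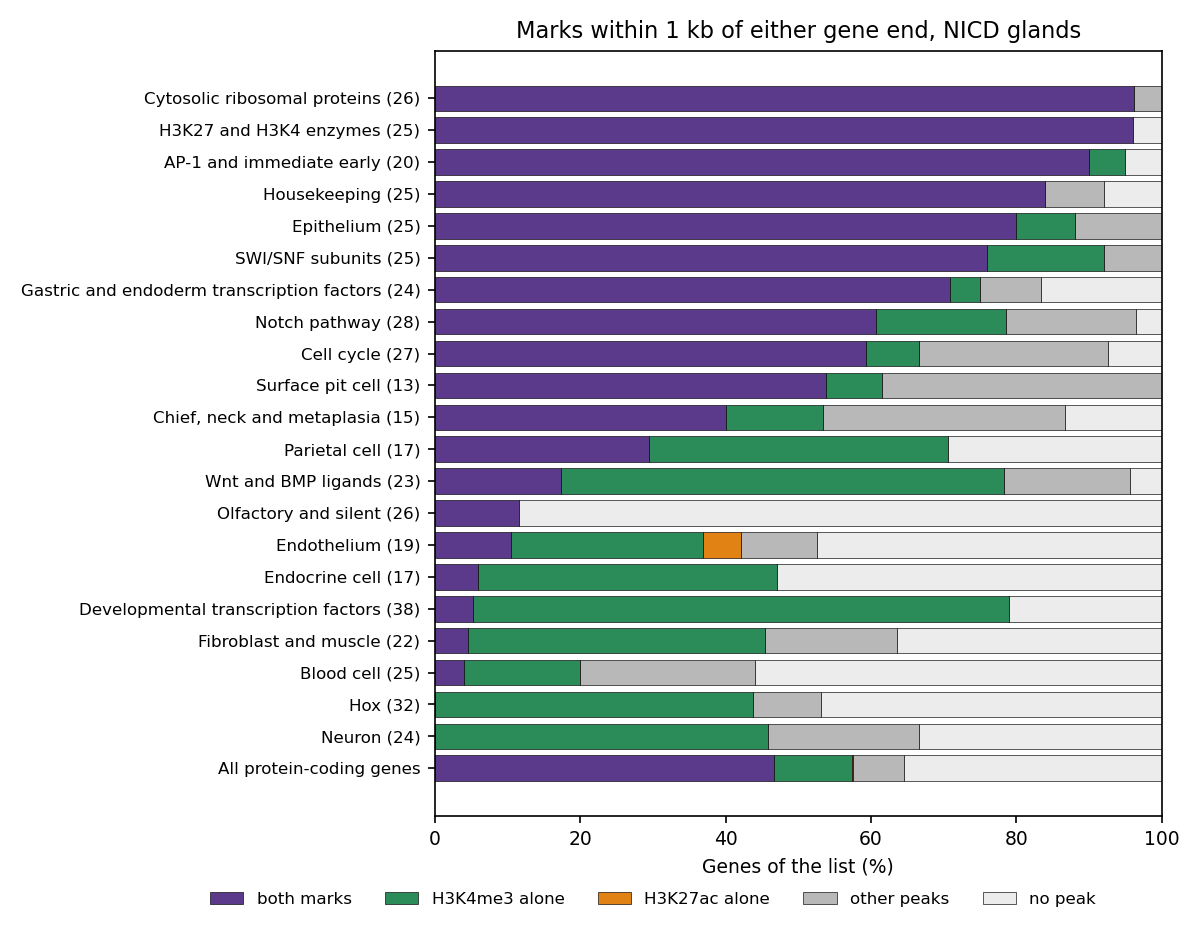
Percent of the genes of each list (horizontal axis; number of genes in brackets) by the marks within 1 kb of either gene end in NICD glands. Bars are ordered by the share with both marks; 25 of 26 ribosomal protein genes stand at the top and 0 of 32 Hox genes near the bottom, and the last bar shows all 21887 genes, of which 46.6% carry both marks.

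Both marks were found at 25 of 26 genes of cytosolic ribosomal proteins, 24 of 25 genes of enzymes that write, erase or read H3K27 and H3K4 marks, 21 of 25 housekeeping genes, 20 of 25 epithelial genes and 19 of 25 genes of SWI/SNF subunits. The silent list, which holds olfactory receptor and other tissue-restricted genes, had 3 of 26. Against 46.6% of all genes, the first lists stood above and the silent list below. Epcam, an epithelial adhesion molecule, had H3K27ac pileups of 101 and 54 and an H3K4me3 pileup of 148 fragments in NICD. Ep300, an acetyltransferase that writes H3K27ac, had 115, 45 and 129, and Kmt2d, a methyltransferase that acts on H3K4 at enhancers, had 90, 47 and 126. Arid1a had 72, 31 and 75.

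Gastric and endodermal transcription factors carried both marks at 17 of 24 genes. Hnf4a, a nuclear receptor of endodermal epithelium, had H3K27ac pileups of 100 and 47 and an H3K4me3 pileup of 131 fragments. Klf5, a factor of proliferating epithelium, had 99, 38 and 112. Pdx1, a homeobox factor of the antrum, duodenum and pancreas, had 44, 23 and 91, and no peak of either mark was called there in wild type. Genes of the AP-1 and immediate early list carried both marks at 18 of 20, among them Jun with 116, 60 and 109. Of the other members, Egr3, a zinc-finger factor, carried H3K4me3 alone and Egr2 had no peak.

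Among developmental regulators with a peak, H3K4me3 alone was the commonest state. It was found at 28 of 38 developmental transcription factors, 14 of 32 Hox genes, 14 of 23 Wnt and BMP ligands and 11 of 24 neuronal genes, against 10.7% of all genes. Both marks were found at 2, 0, 4 and 0 members of the same lists. Gsc, a homeobox gene of the embryonic organiser, had an H3K4me3 pileup of 68 fragments and no H3K27ac peak in either list. Msx1, a homeobox gene of limb and tooth, had 56, and Lhx2 had 41. The 14 Hox genes included Hoxa4 with 43 and Hoxd13 with 29. Among ligands, Wnt5b had 70, Bmp6 had 58 and Wnt11 had 55.

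These H3K4me3 peaks were of middling rank in their list, with medians of 46.6 for developmental transcription factors, 45.3 for Hox and 51.7 for Wnt and BMP ligands, beside 46.6 for all 2352 genes. Most were not called in another H3K4me3 library, which also held for all genes with H3K4me3 alone. Of all 2352 genes with H3K4me3 alone, 414 had a peak that overlapped one of the wild-type or Arid1a-floxed H3K4me3 list. This is 1.89% of all genes, but the counts that follow are to be read beside 414 of 2352. Of the 28 developmental factors 2 did, and of the 14 Hox genes, 14 ligands and 11 neuronal genes 1, 4 and 1 did. Msx1 and Lhx2 had wild-type H3K4me3 pileups of 17 and 14 fragments, and no peak was called at Gsc, Hoxa4 or Hoxd13 in wild type. Among the 4 ligands with both marks, Ihh, the hedgehog ligand of gut epithelium, had 65, 32 and 114, and Wnt4 had 40, 19 and 78.

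Genes of the gland's cell types were divided between classes. Of 17 parietal genes, 5 carried both marks, 7 H3K4me3 alone and 5 no peak, beside 46.6%, 10.7% and 35.4% of all genes. The 5 included Car2, a carbonic anhydrase that supplies protons, with H3K27ac pileups of 74 and 48 and an H3K4me3 pileup of 121, and Kcnq1, a potassium channel of acid secretion, with 62, 34 and 101. Hrh2 had no H3K27ac peak in NICD and an H3K4me3 pileup of 24, while in wild type it had H3K27ac pileups of 28 and 24 and an H3K4me3 pileup of 20. Atp4b had no H3K27ac peak in NICD and an H3K4me3 pileup of 15, while in wild type H3K27ac pileups were 22 and 20 with no H3K4me3 peak. Both genes thus had H3K27ac in both wild-type lists and in neither NICD list.

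Chief, neck and metaplasia genes carried both marks at 6 of 15 and pit cell genes at 7 of 13, both near the 46.6% of all genes. Clu, a secreted chaperone, had 52, 31 and 93, and Agr2, a protein disulfide isomerase of mucous cells, had 53, 28 and 78. Foxq1, a forkhead factor of pit cells, had 97, 36 and 114. The mucins Muc5ac, of pit cells, and Muc6, of neck cells, had weaker marks, with H3K4me3 pileups of 24 and 25, and H3K27ac in replicate 1 alone at Muc6 with 22. Of 17 endocrine genes, 1 carried both marks, namely Isl1, a homeobox factor, with 37, 17 and 90, and 7 carried H3K4me3 alone.

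Genes of the Notch pathway, which the transgene activates, carried both marks at 17 of 28, beside 46.6% of all genes. The ligand Jag1 had H3K27ac pileups of 128 and 76 and an H3K4me3 pileup of 114. The receptors Notch1 and Notch2 had 60, 33 and 102 and 67, 36 and 122. The target Hey1 had 37, 16 and 107. H3K4me3 alone was found at 5 genes, beside 10.7% of all genes: the target Hes5 with 66, the ligand Dll3 with 33, the glycosyltransferases Lfng with 50 and Mfng, and Dtx1, a ubiquitin ligase of the pathway. Hes1, a target with a repressor role, had an H3K27ac pileup of 58 in replicate 1, no H3K27ac peak in replicate 2 and an H3K4me3 pileup of 98. Both wild-type lists held H3K27ac at Hes1, with 34 and 32, beside an H3K4me3 pileup of 30, so the missing peak in replicate 2 kept it out of the class with both marks.

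Few genes of cells other than epithelium carried both marks. Of 22 fibroblast and muscle genes, 1 carried both marks and 9 H3K4me3 alone. Of 19 endothelial genes the numbers were 2 and 5, and of 25 blood cell genes 1 and 4, beside 46.6% and 10.7% of all genes. Ptprc had H3K27ac pileups of 28 and 18 and an H3K4me3 pileup of 14, and Acta2 had 24, 11 and 30. Both lay below Epcam in each list.

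The strongest regions with both marks at gene ends lay at predicted genes such as Gm40363 on chromosome 6 and Gm3435 and Gm3448 on chromosome 17, which may share reads with near copies and are uncertain. Next in rank came Bcl2l13, a mitochondrial protein of the BCL2 family, with 154, 87 and 161 fragments, and Rab1a, a GTPase of transport from the endoplasmic reticulum, with 143, 76 and 168. The strongest H3K4me3-alone peaks with no H3K27ac peak within 1 kb of the gene lay at Traf3ip1, a part of the transport machinery of cilia, with 128 fragments, at Mok, a protein kinase, with 127, and at Taok3, another kinase, with 121. Wild-type H3K4me3 was also called at these 3 genes, with 25, 20 and 24 fragments. At Hspbap1, Slc49a4, Invs, Erp44 and Rer1 the H3K4me3-alone peak, with 119 to 135 fragments, was ranked among the top 10 as well. Invs and Rer1 carried both marks in a neighbouring region, so their H3K4me3-alone peak lay beside it.

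H3K27ac alone was scattered over distal regions. Its 3864 distal regions had 2550 genes as their nearest, of which 1744 were nearest to only 1. Shroom3, an actin regulator of epithelial shape, was nearest to 9 such regions over 240 kb on chromosome 5, and Tomm20, a mitochondrial import receptor, to 9 over 154 kb on chromosome 8. Foxq1 was nearest to 7 over 271 kb and carried both marks at the gene, as did Enc1, Irf2bp2, Klf12, Rad51b, Rreb1, Opa1 and Slc39a11. Shroom3 carried H3K4me3 alone. A nearest gene is a position and was not tested as a target.

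The strongest distal region of the class lay 4330 bp from Sprr2a2, a gene of the cornified envelope, with pileups of 104 and 73 on chromosome 3 (GRCm38) between 92245707 and 92246317. Sprr2a2 has near-identical neighbours, so its reads are uncertain. Next came a region 2063 bp from Id2, an inhibitor of helix-loop-helix factors, with 110 and 56 fragments on chromosome 12 between 25098155 and 25098828. Others lay 14161 bp from Vps37b, a sorting protein, with 109 and 54, and 2758 bp from Per2, a clock gene, with 80 and 55. Regions nearest to Sfi1 and Frmd8 ranked between these but had low fold enrichments, 2.47 and 2.50 at Sfi1 and 1.88 and 2.58 at Frmd8. No library outside NICD called either region. At gene ends the strongest lay at Calm3, a calmodulin gene, with 106 and 53, but Calm3 also had an H3K4me3 pileup of 126 beside it. Tmc6 and Tmc8, which lie side by side, shared a region of 97 and 45 fragments, and Tmc6 had no H3K4me3 peak within 1 kb in NICD, wild-type or Arid1a-floxed glands.

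The classes differed in how often libraries from other mice called them. In wild-type H3K27ac libraries 71.9% and 68.5% of regions with both marks were called, 28.1% and 31.1% of those with H3K27ac alone, and 2.58% and 1.73% of those with H3K4me3 alone. With 1 floxed Arid1a allele the shares were 25.2% and 38.4% for both marks, 4.20% and 3.61% for H3K27ac alone, and 0.380% and 0.215% for H3K4me3 alone. With 2 floxed alleles they were 70.8% and 67.2%, 18.8% and 15.5%, and 0.715% in each library. The order of the 3 classes was the same in all 6 libraries.

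Both marks exceeded H3K27ac alone by 40.1 ± 11.7 percentage points (mean ± SD over 6 libraries), with the difference positive in 6 of 6 (two-sided exact sign-flip permutation test, p = 0.03125, Benjamini-Hochberg adjusted over 4 differences p = 0.03125, the smallest p that 6 libraries allow). Inside 10 classes of equal H3K27ac strength the difference was 23.0 ± 10.7 points, from 6.14 to 34.0, and positive in 6 of 6 (same test, adjusted exact p = 0.03125). With strength ranked by −log10 p in place of pileup it was 10.7 points, with the same exact p. Width and distance to gene ends were not matched. Among distal regions the mean called shares for both marks against H3K27ac alone were 55.2% against 28.9% in wild type. They were 20.3% against 3.80% with 1 floxed allele and 47.4% against 15.8% with 2. Both marks exceeded H3K4me3 alone by 55.9 ± 19.4 points, and H3K4me3 alone fell below H3K27ac alone by a mean difference of -15.8 ± 10.8 points, each in 6 of 6 libraries, and without H3K27ac NICD replicate 2 the latter was -5.63 points. These 2 differences are a description, since the rule set the H3K4me3-alone class by the absence of H3K27ac in NICD. With any of the 6 libraries left out, the smallest p that 5 libraries allow is 0.0625, so both calls end. The 6 libraries came from 3 genotypes, and both 1-allele lists were short, with 5165 and 7602 peaks.

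**Figure D5:**
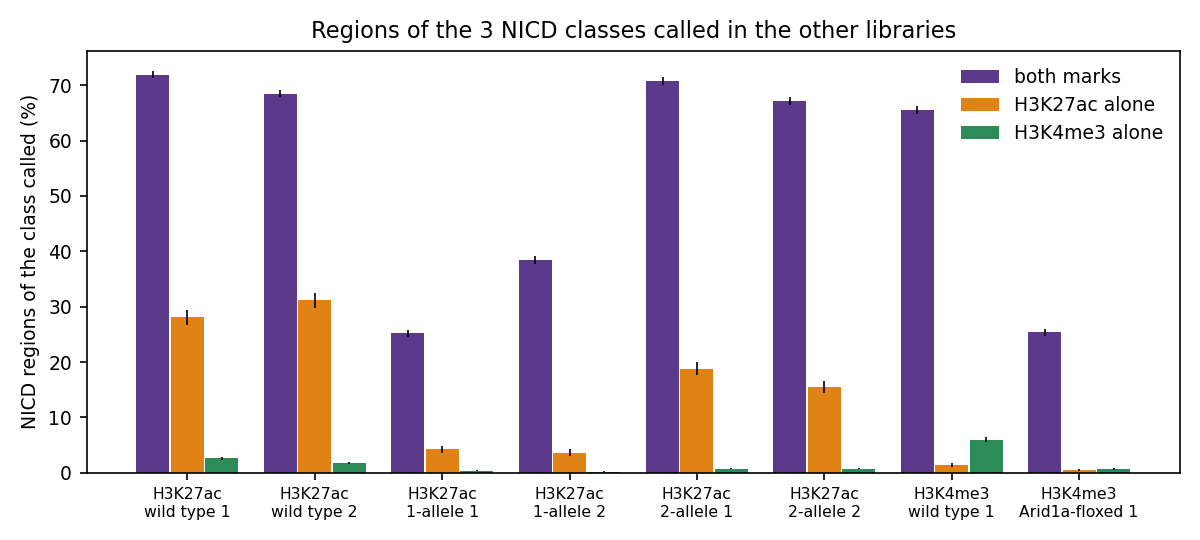
Percent of the NICD regions of each class (vertical axis) that overlapped a peak of each of the 8 other libraries (horizontal axis), with 95% Wilson intervals that cover counting error only. Bars for both marks are the tallest in all 8 libraries, from 25.2% to 71.9%; H3K4me3 alone reaches 6.003% in the wild-type H3K4me3 library.

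In the H3K4me3 libraries regions with both marks were called at 65.5% in wild type and 25.4% in Arid1a-floxed glands. The Arid1a-floxed list was short, with 5175 peaks against 17558 in wild type. The part of list length in these shares was not tested. H3K4me3 alone was called at 6.003% and 0.671%, and H3K27ac alone at 1.42% and 0.496%. At gene ends 13.9% of H3K4me3-alone peaks were called in wild type, against 3.37% of distal ones. Over all 8 other libraries, 90.5% of the class with H3K4me3 alone was found in none, against 48.3% for H3K27ac alone and 10.7% for both marks. H3K27ac made up most of these libraries, and the rule set H3K4me3 alone by its absence in NICD. The classes thus had unequal chances of being found. Most regions with H3K4me3 alone thus rest on 1 library.

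The same classes formed in wild-type glands gave 9611 regions with both marks, 3539 with H3K27ac alone and 4527 with H3K4me3 alone. These values stand side by side with no test, since each group had 1 H3K4me3 library. In wild type 73.1% of H3K27ac regions carried H3K4me3, against 80.3% in NICD, and with all 6 lists at the length of the shortest, 17558 peaks, the shares were 74.4% and 75.6%. The H3K4me3-alone class had 63.0% of its peaks at gene ends in wild type against 25.04% in NICD, and at equal length 64.2% and 63.7%. These shares thus came close to each other once lists were of equal length. H3K27ac alone remained apart, with 31.0% at gene ends in wild type and 8.76% in NICD, and 31.7% and 11.2% at equal length. Both marks were found at 34.4% of genes in wild type, and 98.7% of these 7537 genes carried both marks in NICD as well. Of the 2352 genes with H3K4me3 alone in NICD, 6 carried both marks in wild type, among them Hrh2.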

How the data were processed

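The members and gene lists were chosen with earlier results of these data known, and no list is independent support for a pattern. Per the submitters' processing notes, Bowtie2 served for alignment to GRCm38 (mm10) and MACS2 for peak calling on 50-bp reads. The file headers of 9 lists give MACS 2.0.10.20131216, run per library without a control, with duplicates removed, q at 0.05 and background windows reaching 10 kb. The protocol in the labels mentions only an antibody to H3K27ac, also for libraries whose antibody label is H3K4me3. A peak that was not called is not a missing mark.

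In the deposited lists the authors give a pileup signal at each summit, p-value and q-value as −log10, and a fold enrichment ratio over local background. These were used only to rank, filter or describe peaks within a list. The deposited lists of the 2-allele group hold positions only, and their depth is unknown. Tags after duplicate removal were 7.96 M to 20.81 M in the other lists, per the file headers.

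Only peaks of chromosomes 1 to 19, X and Y were used, merged with numpy 2.4.6 and pandas 2.3.3. Gene ends came from RefSeq (GRCm38.p6, 21887 protein-coding genes), with a strand for 17492. Of 497 list names, 496 matched. Strength was the percentile of pileup within a list. Called shares were compared within libraries by a two-sided exact sign-flip permutation test. The code for the overlap classes and the statistics was checked on made-up data with known answers. Named genes were taken from the 10 strongest per class and the 10 nearest to the most distal H3K27ac-alone regions. Up to 4 per list and class were also eligible, as were Arid1a, Notch1, Atp4b and Hes1. Not all of these are printed, and other genes were named after their values were seen. The alternatives were a larger overlap, stricter peaks, equal list lengths, a margin of 1 kb between marks, another gene window, gene starts only, ranks by −log10 p, and leaving out each library. Equal lengths over all 6 NICD and wild-type lists and H3K4me3 peaks found again were added after seeing the data. No unit differed from the plan.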

Additional observations from a re-analysis of the deposited data

How the results depend on the processing

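Of 149 alternative values for 23 results, 83 kept their direction and call or moved within the limits set for a value or count, 42 moved beyond them and 24 lost their call; none changed direction. A kept call can hide a move in size: the equal-strength difference was 10.7 points with strength by −log10 p, against 23.0, and the H3K4me3-alone class held 22100 peaks without NICD replicate 1, against 15808. The 24 are the 4 called-share differences without each of the 6 libraries in turn, where 5 libraries cannot reach the threshold (exact p = 0.0625). Over these and over leaving out either NICD replicate the differences ran from 35.6 to 43.9 points (both marks minus H3K27ac alone), 17.0 to 26.4 (at equal strength), 41.3 to 62.2 (both marks minus H3K4me3 alone) and -18.3 to -5.63 (H3K4me3 alone minus H3K27ac alone, the latter -5.63 without NICD replicate 2). No paired analysis was possible because no test compared groups of libraries whose replicate numbers could pair them; each tested difference was already taken between classes inside a library.

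For H3K27ac alone, with either replicate left out, the size ran from 5808 to 16489, its genes from 518 to 1134, its share at gene ends from 7.03% to 8.30% and its strength from 29.1 to 32.6. The share at gene ends ran from 53.6% to 61.3% for both marks and from 25.04% to 26.3% for H3K4me3 alone, and H3K4me3 strength from 71.3 to 78.1 and from 30.1 to 32.4.

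The share at gene ends for both marks was 62.9% with an overlap of 50% of the shorter peak, 68.9% for peaks with −log10 q of at least 5, 71.9% at equal list length, 59.6% with marks within 1 kb counted as together, 67.1% with a window of 2.5 kb and 50.0% with gene starts only. For H3K4me3 alone it was 30.4%, 42.7%, 22.5%, 33.2% and 17.4% under the last 5 of these. For H3K27ac alone it was 10.24% with the stricter threshold, 3.81% with marks within 1 kb together, 14.1% with the wider window and 5.24% with starts only. The H3K27ac-alone class held 2539 regions with the stricter threshold, and its genes numbered 120 with marks within 1 kb together, 653 with the wider window and 224 with starts only. H3K4me3 alone held 8649 peaks at equal length. H3K4me3 strength with both marks was 81.7 with the stricter threshold, 82.5 at equal length and 77.5 by −log10 p, and with H3K4me3 alone 39.3, 52.1 and 30.4, and 27.6 with marks within 1 kb together. The H3K4me3 share of H3K27ac regions at 6 equal lists was 75.6% in NICD and 74.4% in wild type. Members with H3K4me3 alone found again numbered 2 (developmental transcription factors), 1 (Hox), 4 (Wnt and BMP ligands) and 1 (neuron). Causes were not tested. Replicate 2 had the fewest tags of the NICD lists, and H3K4me3 had 1 library, and the part of depth in the class sizes was not tested.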

Other observations

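Regions outside the 3 classes were numerous. H3K27ac called in 1 NICD list only made up 21380 of 42915 merged H3K27ac regions, and 37.8% of them overlapped H3K4me3, below the 80.3% of regions in both lists. H3K4me3 peaks that touched 1 H3K27ac list only numbered 6760. Of replicate 1 peaks 60.2% overlapped H3K4me3 (92.0% at gene ends, 43.0% elsewhere), and of replicate 2 peaks 77.2% did (96.1% and 58.8%). The genes of these unclassified regions included Notch pathway members with H3K27ac in replicate 1 and H3K4me3: Notch3, a receptor, with 37 and 73 fragments, Nrarp, a feedback inhibitor, with 40 and 108, and Jag2, a ligand, with 11 and 37. The mucous neck cell genes Tff2, a trefoil peptide, and Aqp5, a water channel, had H3K27ac pileups of 45 each in replicate 1, none in replicate 2, and H3K4me3 pileups of 54 and 60, and no peak was called at either gene in wild type.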
